A study of Homo sapiens with 12 samples.

Results

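RNA-seq of 10 genes that set or mark the epithelial and the mesenchymal state was examined in HCT 116p53-/- cells and in their sub-line uL3ΔHCT 116p53-/-. The genes are a list of names drawn up with earlier results of these data known: the transcription factors ZEB1, ZEB2, SNAI1, SNAI2 and TWIST1, the epithelial regulators GRHL2, OVOL1 and ESRP1, and the marker genes VIM and CDH2. They are 10 of 60617 gene identifiers in the files, and 9 of them were among the 15692 genes with enough reads to be tested, TWIST1 being the exception. HCT 116p53-/- is a human colon cancer line in which both p53 alleles were deleted, so that every library lacks p53. uL3ΔHCT 116p53-/- derives from it and is described in the study as stably silenced for the ribosomal protein uL3, and in the sample labels as a knockout of RPL3, the gene of uL3. Whether the sub-line is 1 clone is not given in the sources used here. Each line received vehicle or 5 nM Act D (actinomycin D, which at this dose blocks rRNA synthesis) for 24 h, with 3 libraries in each of the 4 groups, labelled as biological replicates.

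Epithelial cells hold together through E-cadherin junctions, and in an epithelial-mesenchymal transition they lose these contacts and gain a motile, fibroblast-like form. ZEB, SNAIL and TWIST factors drive the change by repressing epithelial genes, mostly through E-box sites in their promoters. GRHL2 and OVOL1 act in the opposite sense, and microRNAs of the miR-200 family and ZEB factors repress each other. ESRP1 and its paralog ESRP2 set the epithelial choice of exons in many transcripts, while vimentin (VIM) and N-cadherin (CDH2) are the usual protein markers of the mesenchymal state.

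Totals were between 10087925 and 21138886 expected counts per library. RPL3, whose reads can be shared with its processed pseudogenes, did not have lower counts in the uL3Δ-labelled libraries: it stood at 1121 to 1151 CPM (counts scaled to the TMM-adjusted library size) in HCT 116p53-/- with vehicle and at 1188 to 1337 CPM in the uL3Δ-labelled libraries with vehicle (log2 difference 0.13, SE 0.08, adjusted p = 0.155). Per transcript length (count over effective length, scaled to the same sum in each library) its level was 776 ± 53.4 against 590 ± 48.0 (SD, n = 3), so that CPM and the level per length differ in direction, and the groups are named below only by their labels. Of 12 colon epithelium markers, 6 reached 1 CPM in HCT 116p53-/- with vehicle and 4 in the uL3Δ-labelled libraries, with summed levels of 2481 to 2682 and 1592 to 1784 CPM, while CDX1, VIL1, CDH17, GPA33 and LGALS4 stayed at or under 0.364 CPM in every library. Summed fibroblast markers were 7.71 to 9.72 CPM in HCT 116p53-/- with vehicle and 95.5 to 110.7 CPM in the uL3Δ-labelled libraries, through COL3A1, PDGFRA and LUM, whereas DCN, FAP and POSTN were at most 0.571 CPM in any library. COL1A1, a collagen gene of the same list, was lower in the uL3Δ-labelled libraries (7.496 against 4.15 CPM with vehicle, log2 difference -0.88, adjusted p = 0.0018). The leukocyte markers summed to at most 1.97 CPM and the lung epithelium markers to at most 2.04 CPM in every group. The endothelial sum (33.5 to 49.7 CPM) and the melanocytic sum (9.51 to 40.4 CPM) overlapped between the lines. The part of any other cell type in the results below was not tested, and in bulk RNA fewer cells of a type and less RNA per cell cannot be told apart.

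With vehicle, 5 of the 9 members tested were higher in the uL3Δ-labelled libraries (ZEB1, ZEB2, SNAI1, SNAI2 and VIM) and 3 were lower (GRHL2, OVOL1 and ESRP1), while CDH2 did not pass the test. The same calls were made with Act D. These counts stand against a very large difference between the lines as a whole: 71.3% of all genes tested passed the threshold with vehicle (35.1% higher, 36.2% lower) and 70.4% with Act D (35.1% higher, 35.3% lower). The split between directions moved with the scaling: 5501 genes were higher and 5684 lower with vehicle, and 4202 and 6974 when libraries were scaled by their totals alone. A count of 8 of 9 members is therefore read against that background, and the differences are given below by their size, each tested with edgeR's quasi-likelihood test and adjusted over all genes. Any property of the sub-line other than uL3 cannot be told apart from the labelled change.

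ZEB1 (ENSG00000148516, chr10:31318495-31529814, plus strand, hg38), a zinc finger repressor of E-cadherin, was at 1.82, 1.65 and 1.51 CPM in HCT 116p53-/- with vehicle and at 23.1, 23.9 and 27.8 CPM in the uL3Δ-labelled libraries. With Act D it was at 1.62, 2.30 and 1.85 CPM against 24.2, 28.7 and 25.3 CPM. The lines did not overlap under either treatment, and the log2 difference was 3.91 (SE 0.16, adjusted p = 3.04e-13) with vehicle and 3.75 (SE 0.16, adjusted p = 6.95e-13) with Act D. ZEB2 (ENSG00000169554, chr2:144364364-144521057, minus strand), its close relative, was scarce in both lines. It was at 0.966 to 1.62 CPM in HCT 116p53-/- with vehicle and 3.90 to 4.86 CPM in the uL3Δ-labelled libraries, a log2 difference of 1.79 (SE 0.28, adjusted p = 1.97e-05), and with Act D the difference was 1.78 (SE 0.31, adjusted p = 5.04e-05). These ZEB2 levels rest on 12 to 78 counts per library. The sources used here do not say whether counting used strand, so reads of ZEB1 and of its antisense neighbour ZEB1-AS1 cannot be told apart where they overlap. ZEB1-AS1 was itself at 0.389 to 0.845 CPM in HCT 116p53-/- with vehicle and 3.21 to 5.87 CPM in the uL3Δ-labelled libraries. Per transcript length it was not far from ZEB1. In HCT 116p53-/- it was at 0.467 ± 0.413 (SD, n = 3) beside 0.542 ± 0.122 for ZEB1 with vehicle, and 0.660 ± 0.141 beside 0.574 ± 0.317 with Act D. In the uL3Δ-labelled libraries with vehicle it was at 2.29 ± 0.331 beside 3.20 ± 0.951.

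MIR200CHG (ENSG00000257084, chr12:6963226-6964447, plus strand) is the host transcript of miR-200c and miR-141, which target ZEB1 and ZEB2. It had 15, 16 and 12 counts in HCT 116p53-/- with vehicle, 27, 27 and 14 with Act D, and 0 in all 6 libraries labelled uL3Δ. Taking 3 counts over the zero group as the floor, it was at least 14.7-fold lower in the uL3Δ-labelled libraries with vehicle. With Act D it was at least 16-fold lower. These bounds allow for counting error in the zero group only, while the other group enters by its mean. The mature miRNAs were not analysed here. Their RefSeq sequences (GRCh38.p14) are printed to show what the ZEB transcripts can pair with, in lower case with the seed (bases 2 to 8) in capitals.
miR-200c-3p (chr12:6963742-6963764, plus strand): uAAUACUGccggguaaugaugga
miR-141-3p (chr12:6964155-6964176, plus strand): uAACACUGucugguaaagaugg

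In the longest GENCODE v44 3′ UTR of each member, the letters complementary to the miR-200c seed (CAGTATT) occurred 6 times for ZEB1 and 5 times for ZEB2, and those for miR-141 (CAGTGTT) 3 and 4 times. The other members had at most 1 match to either. Among 19178 genes with such a UTR, 16.9% held at least 1 match to the miR-200c seed, 0.0469% held at least 5 and 3 genes held 6 or more. These shares are not matched for length: the UTR was 2549 bases for ZEB1 and 5370 for ZEB2, against a median of 1233. A match is a description of the letters and not of pairing in these cells. One site of each gene is shown, with the seed match in capitals, because these members held the most matches.
ZEB1 (chr10:31527622-31527643, plus strand): ttttatcttatCAGTATTatca
ZEB2 (chr2:144389049-144389070, minus strand): ctaccatacatCAGTATTttta

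Promoter windows of 300 bases (250 before to 50 after a RefSeq start) were at hand for 4 of the 10 members (ZEB1, ZEB2, VIM and CDH2) and for MIR200CHG. The E-box bound by ZEB and SNAIL factors, CAGGTG on either strand (CACCTG), lay 78 bases before the RefSeq start of MIR200CHG. The same letters were in 2 of the 7 ZEB1 windows and in none of those of ZEB2, VIM and CDH2. This E-box was in 20.6% of all 35116 windows. The GRHL motif AACCGGTT was in none of these windows and in 0.134% of all. The RefSeq start of MIR200CHG lies inside the GENCODE span given above. The sequence up to that RefSeq start (chr12:6962995-6963244, plus strand, GRCh38.p14) is shown for its E-box, in capitals.
MIR200CHG: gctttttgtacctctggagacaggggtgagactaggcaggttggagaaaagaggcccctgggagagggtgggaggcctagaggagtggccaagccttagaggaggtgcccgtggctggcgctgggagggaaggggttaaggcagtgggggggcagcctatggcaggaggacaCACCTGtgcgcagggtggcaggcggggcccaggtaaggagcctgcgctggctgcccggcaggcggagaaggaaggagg

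SNAI2 (ENSG00000019549, chr8:48917598-48921740, minus strand), which encodes SLUG, was almost absent from HCT 116p53-/- cells, with 0.259, 0.275 and 0.302 CPM (4, 4 and 5 counts) with vehicle. The uL3Δ-labelled libraries held 26.0, 37.0 and 33.2 CPM. The lines lay far apart, with a log2 difference of 6.80 (SE 0.23, adjusted p = 2.29e-14), and with Act D it was 5.70 (SE 0.21, adjusted p = 1.25e-13). SNAI1 (ENSG00000124216, chr20:49982980-49988886, plus strand), which encodes SNAIL, was expressed in both lines. With vehicle it was at 10.4, 10.1 and 9.06 CPM in HCT 116p53-/- and at 9.16, 16.2 and 17.4 CPM in the uL3Δ-labelled libraries, so that the groups overlapped. Its log2 difference of 0.55 (SE 0.19, adjusted p = 0.016) passed the test, but fell to 0.30 (adjusted p = 0.18) when libraries were scaled by their totals alone. It no longer passed without replicate 3 of HCT 116p53-/- with vehicle (0.49, adjusted p = 0.0567) or without replicate 2 (0.45, adjusted p = 0.076) or 3 (0.40, adjusted p = 0.0929) of the uL3Δ-labelled libraries. With Act D the SNAI1 difference was 0.54 (SE 0.18, adjusted p = 0.0142), from 15.4 to 20.1 CPM and from 21.8 to 29.6 CPM in groups that did not overlap. It missed the threshold under library totals alone (0.30, adjusted p = 0.162), without replicate 2 (0.45, adjusted p = 0.0644) or 3 (0.47, adjusted p = 0.055) of Act D-treated HCT 116p53-/- and without replicate 1 of the Act D-treated libraries labelled uL3Δ (0.39, adjusted p = 0.1).

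TWIST1 (ENSG00000122691, chr7:19020991-19117636, minus strand), a basic helix-loop-helix inducer of the transition, had between 0 and 2 counts in every library and was not tested. Its summed counts were 2 and 1 in HCT 116p53-/- with vehicle and with Act D, and 5 and 2 in the uL3Δ-labelled libraries. At this depth no level of TWIST1 can be given for either line.

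**Figure D1:**
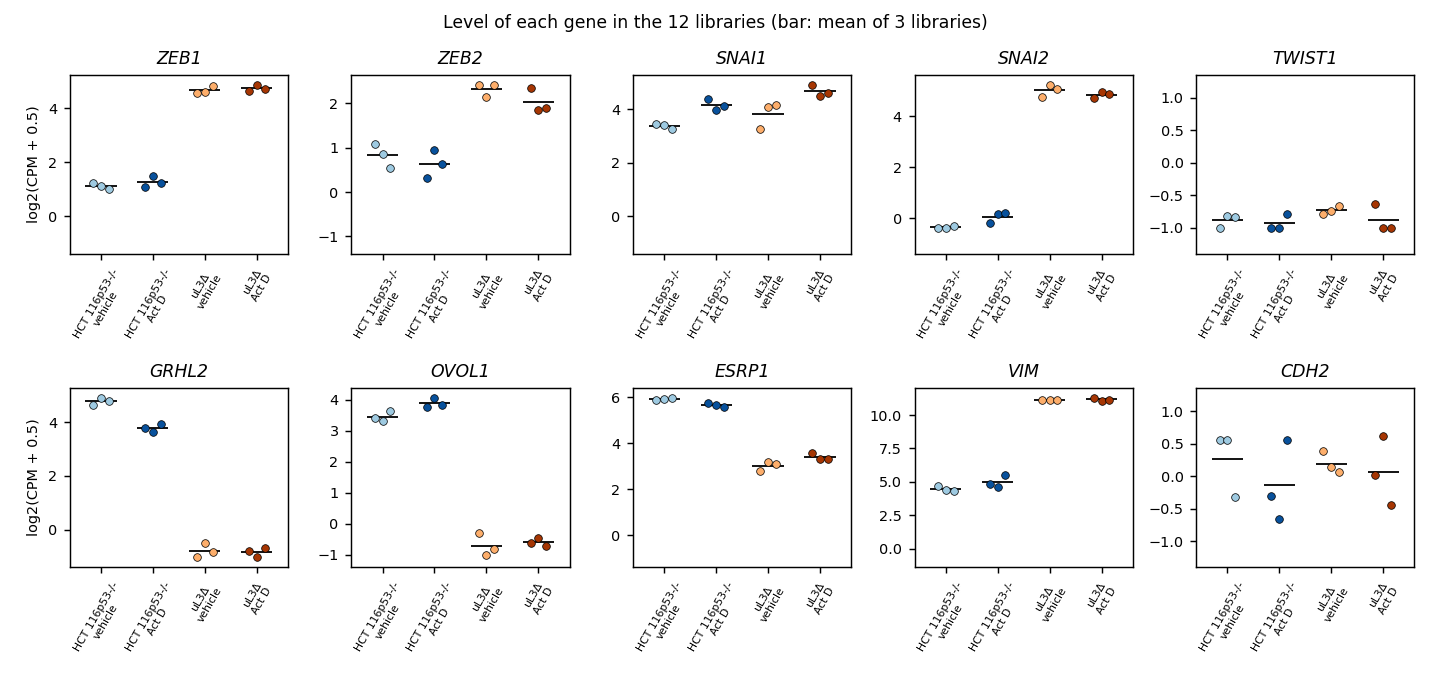
Level of the 10 genes in the 12 libraries as log2(CPM + 0.5), each point 1 library and each bar the mean of 3, for HCT 116p53-/- cells and for the uL3Δ-labelled libraries with vehicle or Act D. The lines separate fully for ZEB1, ZEB2, SNAI2, GRHL2, OVOL1, ESRP1 and VIM, SNAI1 rises with Act D in both lines, and TWIST1 and CDH2 lie near the floor throughout.

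GRHL2 (ENSG00000083307, chr8:101492439-101669726, plus strand), a grainyhead factor that keeps E-cadherin and other junction genes active, was at 24.1, 29.2 and 27.1 CPM in HCT 116p53-/- with vehicle. The libraries labelled uL3Δ held 0, 4 and 1 counts, or at most 0.2 CPM. The summed counts, 1243 against 5, gave a ratio of 253 after scaling (95% exact interval 108 to 779), and with Act D, 575 against 2, a ratio of 207 (57.0 to 1710), the intervals covering counting error only. OVOL1 (ENSG00000172818, chr11:65787063-65797214, plus strand), a zinc finger repressor of ZEB1, followed the same pattern. It had 10.2, 9.37 and 11.9 CPM in HCT 116p53-/- with vehicle and at most 0.321 CPM in the uL3Δ-labelled libraries, where 5 counts in all were found. The ratio was 99.5 (42.4 to 308) with vehicle and 88.6 (37.8 to 274) with Act D. Both genes passed the test under each treatment, the largest adjusted p being 6.39e-11.

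ESRP1 (ENSG00000104413, chr8:94641074-94707466, plus strand) was lower in the uL3Δ-labelled libraries but, unlike GRHL2 and OVOL1, was still found there in numbers. It was at 58.2, 60.2 and 62.5 CPM in HCT 116p53-/- with vehicle and at 6.35, 8.66 and 8.04 CPM in the uL3Δ-labelled libraries, which was 7.76-fold lower (log2 difference -2.96, SE 0.12, adjusted p = 2.35e-13). With Act D the values were 53.8, 49.8 and 46.8 CPM against 11.4, 9.59 and 9.39 CPM, which was 4.91-fold lower (log2 difference -2.30, SE 0.12, adjusted p = 1.1e-11). As a share of the level in HCT 116p53-/- with vehicle, ESRP1 stood at 12.7% in the uL3Δ-labelled libraries, GRHL2 at 0.333% and OVOL1 at 1.24%.

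VIM (ENSG00000026025, chr10:17228241-17237593, plus strand) was at 25.9, 20.4 and 19.7 CPM in HCT 116p53-/- with vehicle and at 2271, 2211 and 2230 CPM in the uL3Δ-labelled libraries. The lines differed by 6.67 on the log2 scale (SE 0.20, adjusted p = 5.1e-15), and with Act D by 6.17 (SE 0.19, adjusted p = 1.31e-14), with no overlap. Its antisense neighbour VIM-AS1 was at 4.10 to 5.33 CPM in the uL3Δ-labelled libraries with vehicle and at most 0.0689 CPM in HCT 116p53-/- with vehicle. CDH2 (ENSG00000170558, chr18:27932879-28177946, minus strand) did not follow VIM. It had 5 to 15 counts per library in HCT 116p53-/- with vehicle (0.302 to 0.972 CPM) and 8 to 12 in the uL3Δ-labelled libraries (0.540 to 0.803 CPM), and the groups overlapped. Its log2 difference was -0.20 (95% interval -1.45 to 1.04, adjusted p = 0.772) with vehicle and 0.37 (-1.09 to 1.82, adjusted p = 0.651) with Act D. Changes of either sign within these wide intervals could not be told from 0 at this depth, while neither interval reached the VIM difference.

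**Figure D2:**
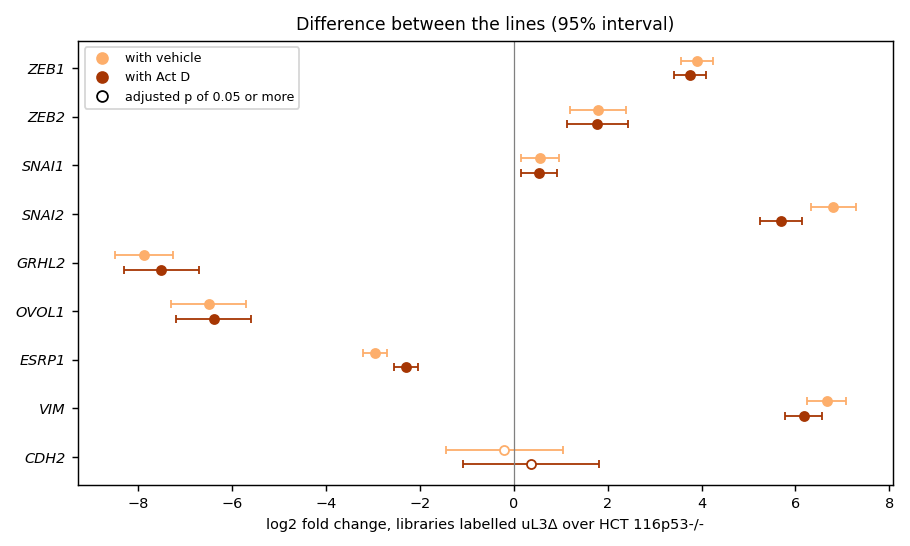
Log2 fold change of the 9 members tested, libraries labelled uL3Δ over HCT 116p53-/- cells, with vehicle and with Act D, with 95% intervals from the fit over all 12 libraries and open symbols for an adjusted p of 0.05 or more. SNAI2 (6.80 with vehicle) and VIM (6.67) lie farthest to the right and GRHL2 (-7.87) and OVOL1 (-6.51) farthest to the left, while the interval of CDH2 spans 0.

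Levels were compared between genes only per transcript length. In HCT 116p53-/- with vehicle the order was ESRP1 (14.5 ± 1.15, SD, n = 3), VIM (9.86 ± 2.15), SNAI1 (4.78 ± 0.509), GRHL2 (4.19 ± 0.33) and OVOL1 (2.85 ± 0.465), followed by ZEB1, ZEB2, CDH2, SNAI2 and TWIST1, all at or under 0.542. SNAI1 and GRHL2 had overlapping ranges there, as did CDH2 and SNAI2. In the uL3Δ-labelled libraries with vehicle, VIM came first at 699 ± 106, above the level of 590 ± 48.0 of RPL3 in the same libraries but with overlapping ranges. SNAI2 (8.14 ± 0.606), SNAI1 (4.79 ± 1.25) and ZEB1 (3.20 ± 0.951) followed, then ESRP1 (1.31 ± 0.0935) and ZEB2 (0.814 ± 0.305), and CDH2, TWIST1, OVOL1 and GRHL2 were at or under 0.179. The ranges of SNAI1 and ZEB1 overlapped. SNAI1 stood at 4.78 and 4.79 per length in the 2 lines, on a scale that has no TMM factors. In CPM its means were 9.83 and 14.2 with vehicle, so the 2 scales differ for this gene.

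The wider gene lists were written by hand from textbook knowledge, with earlier results of these data known. Their counts therefore describe the line difference and are no independent support. They held 102 genes apart from the members, of which 85 were tested. With vehicle 32 were higher and 49 lower in the uL3Δ-labelled libraries, where 71.3% of all genes were called, and the counts of each list below stand against that share. Of 25 epithelial state genes (junction, keratin and apical membrane genes), 22 were lower and 2 higher, with a median log2 difference of -2.63 against -0.02 over all genes. The lower genes with the smallest p were ST14, the membrane protease matriptase (189.6 against 0.936 CPM), KRT19 (608.5 against 36.6 CPM) and AP1M2, an epithelial sorting adaptor subunit (61.2 against 3.18 CPM). With Act D the wider lists gave 29 higher and 45 lower. CDH1, the E-cadherin gene that ZEB and SNAIL factors repress, was at 64.3 to 68.8 CPM in HCT 116p53-/- with vehicle and at 0.161 to 0.701 CPM in the uL3Δ-labelled libraries (log2 difference -7.08, SE 0.23, adjusted p = 1.33e-14). KRT18 (0.47, SE 0.08, adjusted p = 2.28e-05) and SPINT2 (0.31, SE 0.09, adjusted p = 0.00414) were the 2 higher genes.

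Of 25 mesenchymal state genes 19 were tested, and 12 were higher and 5 lower, with a median log2 difference of 1.59. The matrix genes COL6A3 (1.06 against 276.8 CPM) and FN1 (22.6 against 248.7 CPM) were among the higher genes. CAV1, the caveolin-1 gene (361.7 against 124.2 CPM), VCAN, the versican gene (59.3 against 18.8 CPM), and L1CAM (15.1 against 2.94 CPM) were lower. The summed fibroblast markers given above moved with VIM and these genes (at most 9.72 CPM in HCT 116p53-/- with vehicle, at least 95.5 CPM in the uL3Δ-labelled libraries), with DCN, FAP and POSTN at or near 0 and COL1A1 lower, and their part in these differences was not tested.

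Among 18 other factors known to induce the transition, 14 were tested, 9 being higher and 5 lower, against 35.1% and 36.2% of all genes. TCF4, a basic helix-loop-helix factor, had the smallest p (0.196 against 28.4 CPM, log2 difference 7.13, SE 0.28, adjusted p = 1.49e-13), and the forkhead gene FOXQ1 (0.134 against 10.97 CPM) was higher as well. PRRX2, SOX4 and KLF8 were lower. TWIST2, the paralog of TWIST1, had 2 counts in 1 library and none in the others. Among 16 other epithelial factors 9 were tested, 5 lower and 3 higher, beside 36.2% and 35.1% of all genes. CDX2, of the intestinal lineage, was lower (14.8 against 0.177 CPM). KLF5, KLF4 and GRHL1, a paralog of GRHL2 (2.91 against 7.04 CPM, log2 difference 1.29, SE 0.27, adjusted p = 0.000391), were higher. OVOL2, the paralog of OVOL1, was at most 0.402 CPM in any library.

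**Figure D3:**
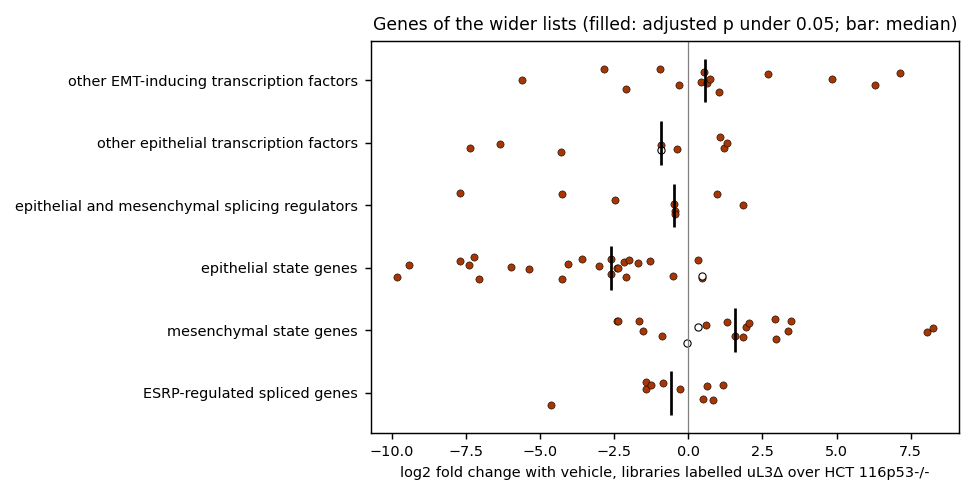
Log2 fold change with vehicle, libraries labelled uL3Δ over HCT 116p53-/- cells, of each tested gene of 6 lists, filled where the adjusted p was under 0.05, with a bar at the median of each list. The epithelial state genes centre on -2.63 and the mesenchymal state genes on 1.59, and each list holds genes on both sides of 0.

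A list of 8 splicing regulators mixed those of the epithelial and of the mesenchymal state, so its counts have no single direction. All 8 were tested and called, 6 lower and 2 higher in the uL3Δ-labelled libraries, where 71.3% of all genes were called. ESRP2, the paralog of ESRP1, had the smallest p. It was at 50.9, 57.2 and 58.9 CPM in HCT 116p53-/- with vehicle and at 0.482, 0.2 and 0.135 CPM in the uL3Δ-labelled libraries. Per transcript length it was close to ESRP1 in HCT 116p53-/- with vehicle (14.9 ± 0.616 and 14.5 ± 1.15, SD, n = 3). In the uL3Δ-labelled libraries with vehicle it was at 0.105 ± 0.0761, where ESRP1 was at 1.31 ± 0.0935. The log2 difference of ESRP2 was -7.72 (SE 0.20, adjusted p = 1.35e-15), beside -2.96 for ESRP1, and the difference between the genes was not tested. QKI (18.5 against 0.970 CPM) and RBM47 (11.1 against 1.91 CPM) were lower, and MBNL2 (41.7 against 149.4 CPM) and PTBP2 (11.8 against 23.2 CPM) higher. The list does not sort these genes by state, so a lower level is not read here as a loss of epithelial splicing.

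The deposited transcript length of a gene, weighted by the abundance of its transcripts, moves with the mix of transcripts and not with the count, so it was read for 9 genes of a list of 10 whose exons are known ESRP targets. By level with vehicle, 4 of the list were higher (SLK, NUMB and ENAH with the smallest p) and 6 lower (FGFR2, CD44 and ARHGEF11). CD44, the hyaluronan receptor, was the only 1 of the 9 whose lengths did not overlap between the lines. How many of all genes have such separated lengths was not counted, so no background stands beside this. Its length was 1730 to 1995 bases over the 6 HCT 116p53-/- libraries (median 1884) and 2009 to 2702 bases over the 6 libraries labelled uL3Δ (median 2405). The nearest libraries of the 2 lines were thus 1995 and 2009 bases, and which exons differ cannot be read from a length. RALGPS2 had medians of 5900 and 4429 bases with overlapping ranges (4850 to 6386 and 3598 to 5137). CD44 and FGFR2 also differed in level, CD44 at 380.0 against 139.3 CPM and FGFR2 at 18.4 against 0.753 CPM with vehicle. At that level the FGFR2 length in the uL3Δ-labelled libraries scattered from 786 to 3444 bases.

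**Figure D4:**
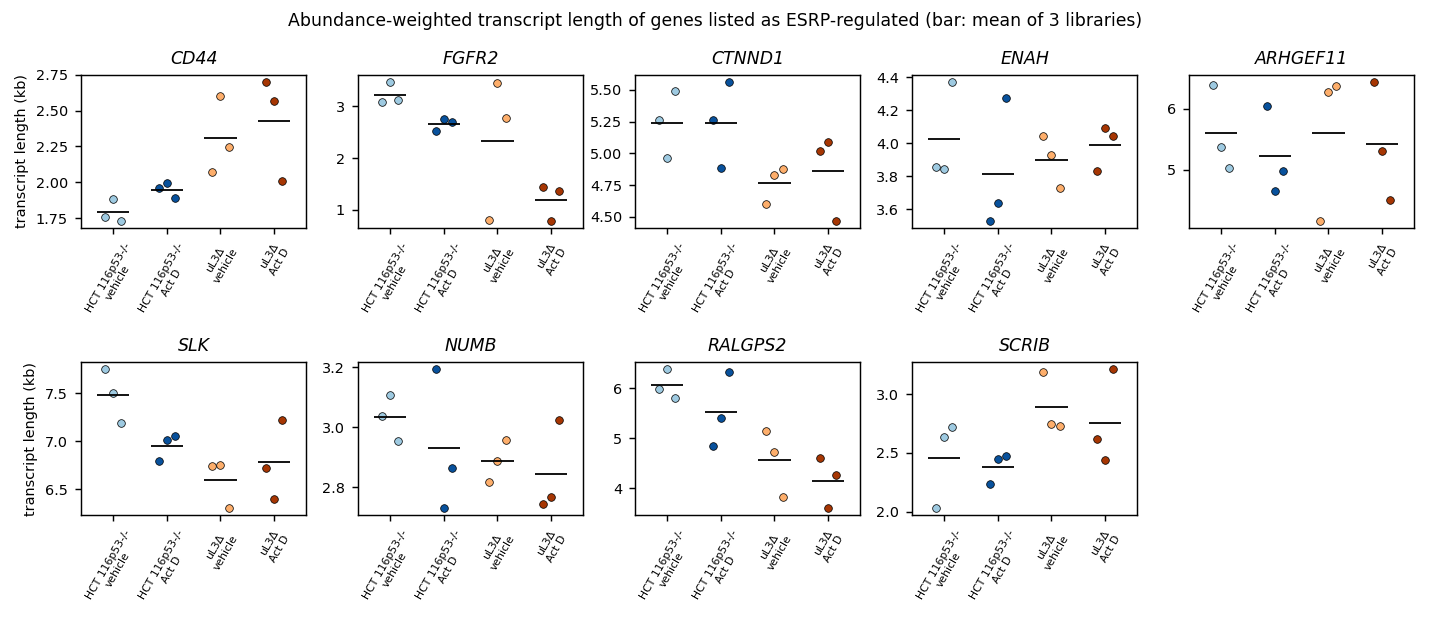
Abundance-weighted transcript length in kb of 9 genes listed as ESRP-regulated, each point 1 library and each bar the mean of 3, by line and treatment. The 6 CD44 lengths of HCT 116p53-/- cells (1730 to 1995 bases) lie under all 6 of the uL3Δ-labelled libraries (2009 to 2702 bases), and the other 8 genes overlap.

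Fewer members passed the threshold for Act D than for the line difference. In HCT 116p53-/- cells 3 of the 9 tested passed the threshold (SNAI1 and VIM higher, GRHL2 lower), where 18.7% of all genes did, and in the uL3Δ-labelled libraries 1 did (SNAI1, higher), where 11.9% of all genes did. SNAI1 rose in both lines. In HCT 116p53-/- cells it went from 9.06 to 10.4 CPM up to 15.4 to 20.1 CPM, without overlap (log2 change 0.82, SE 0.19, adjusted p = 0.00538). Its level in the uL3Δ-labelled libraries went from 9.16 to 17.4 CPM up to 21.8 to 29.6 CPM, again without overlap (0.81, SE 0.18, adjusted p = 0.00706), though without replicate 1 of the Act D-treated libraries the change was 0.67 with an adjusted p of 0.0566. The responses of SNAI1 in the 2 lines differed by -0.01 (95% interval -0.56 to 0.54).

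GRHL2 fell in HCT 116p53-/- cells from 24.1, 29.2 and 27.1 CPM to 13.3, 11.97 and 14.9 CPM (log2 change -1.003, SE 0.15, adjusted p = 0.000141), and all 14 alternatives kept the call. In the uL3Δ-labelled libraries its 5 and 2 counts allow no statement. OVOL1, by contrast, was at 9.37 to 11.9 CPM with vehicle and 13.0 to 16.1 CPM with Act D in HCT 116p53-/- cells, without overlap, but its change of 0.44 (SE 0.19) did not pass the test (adjusted p = 0.128). It passed with the likelihood-ratio test (adjusted p = 0.0467) and with only the groups compared in the fit (0.0289). On simulated counts 12.4% of the calls of the likelihood-ratio test were false, against 5.99% of those of the quasi-likelihood test. ZEB1 was at 1.51 to 1.82 and 1.62 to 2.30 CPM (0.21, adjusted p = 0.562), ZEB2 at 0.966 to 1.62 and 0.748 to 1.42 CPM (-0.28, adjusted p = 0.619), and neither passed in the uL3Δ-labelled libraries (0.06, adjusted p = 0.824, and -0.29, adjusted p = 0.544). CDH2 did not pass in either line.

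VIM was at 25.9, 20.4 and 19.7 CPM with vehicle and 28.2, 23.9 and 45.2 CPM with Act D in HCT 116p53-/- cells, so that the groups overlapped and replicate 3 stood apart. Its change of 0.55 (SE 0.17, adjusted p = 0.0302) was lost without that library (0.26, adjusted p = 0.198), without replicate 2 (0.50, adjusted p = 0.105) or 3 (0.48, adjusted p = 0.109) of the vehicle group, under library totals alone (0.45, adjusted p = 0.0909), with DESeq2 (0.57, adjusted p = 0.0575) and with only the 2 groups in the fit (0.55, adjusted p = 0.052). VIM in the uL3Δ-labelled libraries was at 2211 to 2271 and 2184 to 2491 CPM (0.06, SE 0.15, adjusted p = 0.864). With Act D, VIM in HCT 116p53-/- cells reached 1.39% of its level in the uL3Δ-labelled libraries, against 0.982% with vehicle. SNAI2, with 13 counts in all with vehicle and 23 with Act D in HCT 116p53-/- cells (0.91, SE 0.44, adjusted p = 0.179), had shares of 0.870% and 1.93%.

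ESRP1 was the member whose response to Act D differed between the lines, at a background of 6.53% of genes with such a difference. It was at 58.2, 60.2 and 62.5 CPM with vehicle and 53.8, 49.8 and 46.8 CPM with Act D in HCT 116p53-/- cells (log2 change -0.27, SE 0.10, adjusted p = 0.0799). The uL3Δ-labelled libraries had 6.35, 8.66 and 8.04 CPM and then 11.4, 9.59 and 9.39 CPM (0.39, SE 0.13, adjusted p = 0.0644). Neither change passed by itself. That in HCT 116p53-/- cells passed under library totals alone (-0.37, adjusted p = 0.0333) and with only the groups compared (-0.26, adjusted p = 0.0294), and that in the uL3Δ-labelled libraries under upper quartile scaling (0.46, adjusted p = 0.0316) and without replicate 2 of their vehicle group (0.49, adjusted p = 0.0437). The vehicle and Act D groups did not overlap in either line. The difference of the responses was 0.66 (SE 0.17, 95% interval 0.31 to 1.01, adjusted p = 0.0252). It missed the threshold without replicate 2 (adjusted p = 0.0514) or 3 (0.0559) of HCT 116p53-/- with vehicle, replicate 2 (0.0579) or 3 (0.0726) with Act D, or replicate 1 of the Act D-treated libraries labelled uL3Δ (0.101), with a difference of 0.55 to 0.66 in these 5 fits. SNAI2 (-1.11, adjusted p = 0.166) and VIM (-0.50, adjusted p = 0.216) had negative differences that did not pass.

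**Figure D5:**
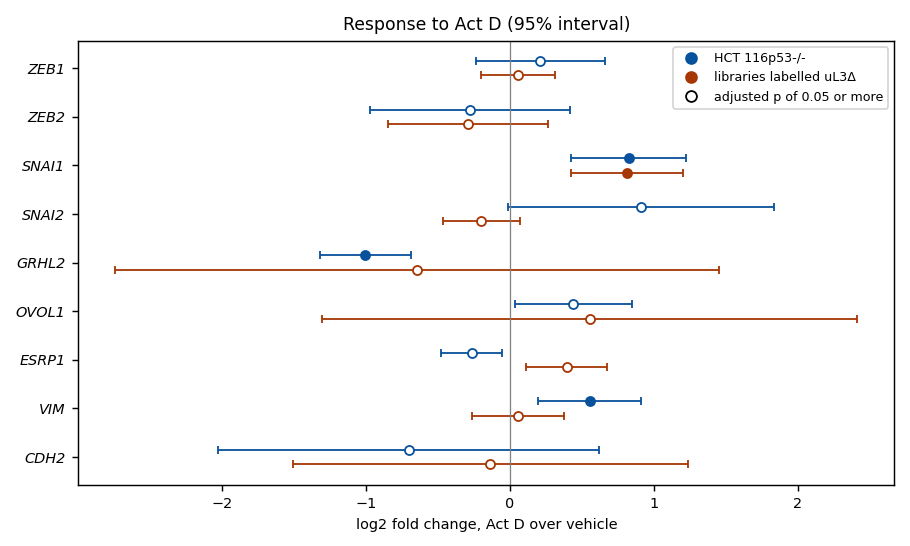
Log2 fold change of the 9 members tested, Act D over vehicle, in HCT 116p53-/- cells and in the uL3Δ-labelled libraries, with 95% intervals and open symbols for an adjusted p of 0.05 or more. SNAI1 lies at 0.82 and 0.81 in the 2 lines, GRHL2 at -1.003 in HCT 116p53-/- cells, and ESRP1 on opposite sides of 0 (-0.27 and 0.39).

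Of the 85 tested genes of the wider lists, Act D changed 16 in HCT 116p53-/- cells (8 higher, 8 lower) and 8 in the uL3Δ-labelled libraries (1 higher, 7 lower). Of all genes 18.7% and 11.9% were called, so that neither count stands above the background. Without replicate 1 of Act D-treated HCT 116p53-/- the first count was 10, and without replicate 2 of the Act D-treated libraries labelled uL3Δ the second was 5. With libraries scaled by their totals alone, the splits were 4 higher and 13 lower, and 0 higher and 10 lower. In HCT 116p53-/- cells HMGA2, an architectural chromatin protein gene, fell from 183.2 to 98.3 CPM (log2 change -0.90, SE 0.09, adjusted p = 1.73e-06), and MBNL1, MBNL2 and RBFOX2 fell among the splicing regulators, while KLF5 rose from 57.8 to 81.2 CPM. In the uL3Δ-labelled libraries FOSL1, an AP-1 subunit gene, fell from 202.2 to 140.6 CPM (-0.52, SE 0.08, adjusted p = 0.000339), and AXL, a receptor kinase of the mesenchymal state, fell from 119.3 to 90.2 CPM. MIR200CHG was at 0.725 to 1.10 CPM and 1.13 to 1.83 CPM in HCT 116p53-/- cells, a change that did not pass the test.

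The genes most like ZEB1 over the 12 libraries, by Pearson's r of log2(CPM + 0.5), were LRRC17 (r = 0.999) and LINC00261, MARCKS, STAC and LOX (each r = 0.998). LOX, which encodes the collagen cross-linking lysyl oxidase, was at 0.0459 CPM in HCT 116p53-/- with vehicle and 15.8 CPM in the uL3Δ-labelled libraries. The genes most like ESRP1 were PXYLP1 (r = 0.997), PTPN6, GATD3, PDP1 and MPZL2 (each r = 0.995). PTPN6 is a phosphatase gene whose end lies 1.91 kb before the GENCODE start of MIR200CHG on chromosome 12. It was at 26.7 and 25.8 CPM in HCT 116p53-/- with vehicle and with Act D and at 3.82 and 4.85 CPM in the uL3Δ-labelled libraries. All points share line and treatment, and 2081 genes had r above 0.95 with ZEB1 and 1625 with ESRP1, so that this likeness describes the line difference. By Spearman's rho 0 of the 5 genes named for either member were among its nearest 5.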

How the data were processed

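RNA-seq of 12 libraries in 4 groups was analysed. Per the study's methods and the labels, the authors trimmed reads, removed rRNA and other contaminant reads, and ran RSEM 1.2.25 on hg38 with Ensembl annotation, depositing the expected count, the TPM and the transcript lengths of each gene. One library (HCT 116p53-/- with vehicle, replicate 2) was deposited by transcript, and its gene values were summed from these. Strandedness of counting is not given in the sources used here. Expected counts were rounded and tested with edgeR 4.0.16 (R 4.3.3), with its filter on low counts, TMM scaling, the quasi-likelihood test over all 12 libraries, and Benjamini-Hochberg adjustment over 15692 genes at 0.05. The deposited TPM values were used as an alternative for levels. Intervals are 95%. Libraries are labelled as biological replicates, and nothing says that they came from separate cultures, so that p-values may measure technical spread only. Totals of 10087925 to 21138886 limit genes with few counts. Symbols came from GENCODE v44 (60261 of 60617 identifiers). Python 3.11 with pandas 2.3.3 made the summaries, and the tests were tried on simulated counts.

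The members and gene lists were chosen with earlier results of these data known. Besides all members, the text names in each list up to 3 called genes in each direction with the smallest p and no overlap between groups, RPL3, marker genes, and the 5 genes most like ZEB1 and ESRP1; TWIST2 and OVOL2 were added as paralogs after their values were seen. Some list genes that the rule would name are not reported here, but are in the counts of their lists. Replicate numbers did not pair the libraries (correlation of same-numbered deviations -0.161 to 0.119). Alternatives were DESeq2 1.42.0, the likelihood-ratio test, 2 other scalings, 2 other filters, a replicate block, only the groups compared, and leaving out each library.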

Additional observations from a re-analysis of the deposited data

Results flagged for a closer look

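Of the genes reported here, 11 differed between the lines in their response to Act D by the interaction term of edgeR's quasi-likelihood test, each value being the log2 response in the uL3Δ-labelled libraries minus that in HCT 116p53-/- cells. Among the members this was ESRP1 alone (0.66, adjusted p = 0.0252), and its call was lost in 5 of the fits that leave out 1 library (adjusted p 0.0514 to 0.101). Among transcription factors the difference was -0.69 for FOSL1 (adjusted p = 0.00185), 0.93 for HMGA2 (adjusted p = 0.000294), -0.54 for KLF4 (adjusted p = 0.0332) and -0.55 for KLF5 (adjusted p = 0.0368). HMGA2 fell in HCT 116p53-/- cells (183.2 to 98.3 CPM) and was at 265.3 and 270.8 CPM in the uL3Δ-labelled libraries. Among splicing regulators it was 0.50 for RBFOX2 (adjusted p = 0.0126) and 0.75 for MBNL2 (adjusted p = 0.008). The junction genes CLDN4 (-1.01, adjusted p = 0.00346) and DSP (-0.63, adjusted p = 0.0184) had lower responses in the uL3Δ-labelled libraries. Among mesenchymal genes the values were -1.45 for COL6A3 (adjusted p = 0.0113) and 0.57 for VCAN (adjusted p = 0.0322). COL6A3 was scarce in HCT 116p53-/- cells, going from 1.06 to 2.48 CPM under Act D, and stood at 276.8 and 241.9 CPM in the uL3Δ-labelled libraries. Of all genes tested 6.53% had such a difference.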

How the results depend on the processing

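The 16 line differences called for members kept their direction under all alternatives run, and all but those of SNAI1 kept the call. Scaling by library totals alone shifted the median line difference of all genes from -0.02 to -0.26. With the numbers as a replicate block, 0 members had a response that differed between the lines (ESRP1 0.66, adjusted p = 0.0505), no other member call changed, and the numbers did not pair the libraries. Upper quartile scaling gave 2 members changed by Act D in the uL3Δ-labelled libraries, and no filter on low counts gave 2 with a differing response. With only the groups compared in the fit, Act D changed 25 wider-list genes in HCT 116p53-/- cells in place of 16 and 3 in the uL3Δ-labelled libraries in place of 8, where upper quartile scaling gave 2 higher and 5 lower and DESeq2 3 higher and 7 lower. Genes chosen for under 0.5 CPM in HCT 116p53-/- and at least 50 CPM in the uL3Δ-labelled libraries with vehicle stood, with Act D, at a median of 0.712% of their uL3Δ-labelled level (1.33% at a minimum of 10 CPM), and since that choice caps their vehicle share nothing is read from it. Signs turned only for values that did not pass: under library totals alone the Act D response in the uL3Δ-labelled libraries was -0.048 for ZEB1 and -0.0473 for VIM, and the difference of responses 0.001 for SNAI1; under upper quartile scaling that difference was 0.0174 for ZEB2 and 0.0167 for SNAI1. Leaving out each library in turn gave 0 to 2 members changed by Act D in the uL3Δ-labelled libraries and 0 to 1 with a differing response, and 10 to 15 wider-list genes changed in HCT 116p53-/- cells and 5 to 7 in the uL3Δ-labelled libraries. The log2 ranges over the same fits were -0.59 to 0.0437 (vehicle) and -0.23 to 1.30 (Act D) for the line difference of CDH2. For the Act D response in the uL3Δ-labelled libraries they were -0.0374 to 0.14 for ZEB1, -1.13 to 0.68 for GRHL2, -0.19 to 2.17 for OVOL1 and -0.72 to 0.17 for CDH2. For the difference of responses they were -0.24 to 0.25 for ZEB2, -0.23 to 0.14 for SNAI1, -0.14 to 1.68 for GRHL2, -0.63 to 1.73 for OVOL1 and -0.0248 to 1.502 for CDH2. The cause of these shifts was not tested. Few counts of GRHL2 and OVOL1 in the uL3Δ-labelled libraries, and of CDH2 and TWIST1 in both lines, limit what can be read there.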
